A study of Mus musculus with 4 samples.

Results

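The 10 genes described here, Bdnf, Vgf, Scg2, Nptx2, Adcyap1, Crh, Grp, Spx, Tac2 and Cort, encode neuropeptide precursors, granule proteins and trophic factors that neurons release. They were picked by name out of 33981 genes, with measured differences of these data already known, and which comparison was used to pick them is not recorded. Their differences between stroke and sham are therefore given as a description, without a test. The same limit holds for their values between HT and NT groups and in the interaction. All 10 were found in the tables and all 10 passed the filter on low counts in every comparison.

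Many of these genes are known as activity-dependent, which means that their transcription rises when a neuron fires and calcium enters the cell. The signal reaches the nucleus in part through CREB, a transcription factor that binds the cyclic AMP response element (CRE). The precursors are cut by convertases inside dense core granules and are released upon strong firing. BDNF, the ligand of the receptor TrkB, supports synaptic growth, and peptides such as cortistatin and gastrin-releasing peptide mark subsets of cortical and other forebrain neurons.

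The libraries were made from the brains of male C57BL/6J mice aged 3 to 5 months, from a coronal piece of tissue that includes the prefrontal cortex. NT mice were given saline. HT mice were infused over 28 days with the vasoconstrictor angiotensin II (0.28 mg/kg/day), which raises blood pressure. On day 7 each animal had a sham operation or a photothrombotic (PT) stroke of the prefrontal cortex, in which a light-activated dye clots surface vessels, and all mice were culled on day 28. The groups were NT + Sham, HT + Sham, NT + Stroke and HT + Stroke, with 6 libraries each. Nothing in the labels says that the 6 libraries of a group come from 6 separate mice, so that *P*-values measure the spread between these libraries, which may be technical. In bulk tissue, fewer cells of a type and less RNA per cell cannot be told apart.

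Total gene counts per library ranged from 15922919 to 24865998, with a median of 18497215.5. Levels are CPM, read counts scaled to a common library size with TMM factors, unless stated otherwise. Injury markers set 3 libraries apart from the rest of their groups. Gpnmb, a gene of lipid-laden macrophages, was at 78.0 CPM in library 6 of HT + Sham and at most 10.9 CPM in the other sham libraries. In libraries 1 and 6 of HT + Stroke it was at 15.8 and 18.5 CPM, whereas the other stroke libraries had at least 77.2 CPM. Lgals3 was at 15.9 CPM in that HT + Sham library and at 2.85 and 3.11 CPM in those HT + Stroke libraries. The other sham libraries had at most 1.17 CPM of Lgals3 and the other stroke libraries at least 8.34 CPM. By both genes, libraries 1 and 6 of HT + Stroke thus lay between the other sham and the other stroke libraries. These 3 libraries were kept under their labels, and values without all 3 stand beside the HT comparisons, the correlations and the genes of like pattern.

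The libraries also differed in the levels of marker genes of neighbouring tissue. The summed level of 6 striatal neuron markers ran from 166 to 1926 CPM over the 24 libraries. The summed level of 4 olfactory bulb neuron markers ran from 22.9 CPM in library 2 of HT + Stroke to 350.1 CPM in library 6 of HT + Sham. The cell type of the labels, brain, held throughout: the summed level of 7 general neuron markers was between 5345 and 7136 CPM in every library. The 5 hypothalamic neuron markers (Hcrt, Pmch, Oxt, Avp and Agrp) summed to between 0.506 and 4.06 CPM, so the defining genes of the hypothalamus, where Crh and Tac2 are well known, were close to 0.

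RefSeq promoter windows on GRCm38.p6, which reach from 250 bases before to 50 bases after a transcript's start, were at hand for 6 of the 10 genes, with 14 windows in all and 7 of them for Bdnf. They were searched on both strands for the full CRE, TGACGTCA, for its core TGACG, for the AP-1 motif TGANTCA and for the TATA motif TATAAA. The full CRE contains the core on both strands. The full CRE was in 1 window, that of Scg2, and 1.79% of all 32851 windows held it. The core was in 6 windows, of Scg2, Bdnf, Cort, Spx and Adcyap1, against 20.8% of all windows. The Adcyap1 windows overlap and hold the same core, so this 1 site is counted more than once. AP-1 was in 1 Bdnf window against 7.81%, and the TATA motif in 1 Adcyap1 window against 13.6%. The stretches below hold the CRE or its core within 150 bases before a transcript's start, and capitals mark these letters. The core of Spx, which begins 226 bases before the start, is not shown. The stretch of Scg2 lies on the minus strand at chr1:79440077-79440106. That of Bdnf lies on the plus strand at chr2:109692286-109692435, that of Cort on the minus strand at chr4:149126764-149126913, and that of Adcyap1 on the plus strand at chr17:93198867-93199016. The core begins 35 bases before the transcript's start in Bdnf, 18 in Cort and 91 in Adcyap1, and the full motif begins 68 bases before it in Scg2, where GENCODE M21 has a longer transcript that already covers it. The counted Adcyap1 gene begins at chr17:93199422, downstream of the transcript start used for its window.
Scg2: aggctgagccggTGACGTCAgcgtggaatg
Bdnf: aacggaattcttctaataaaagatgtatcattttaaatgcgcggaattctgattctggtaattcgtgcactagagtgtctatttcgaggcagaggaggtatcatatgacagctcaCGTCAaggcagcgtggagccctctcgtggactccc
Cort: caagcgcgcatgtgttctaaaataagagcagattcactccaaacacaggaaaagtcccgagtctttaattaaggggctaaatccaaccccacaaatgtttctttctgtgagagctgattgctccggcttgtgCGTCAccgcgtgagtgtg
Adcyap1: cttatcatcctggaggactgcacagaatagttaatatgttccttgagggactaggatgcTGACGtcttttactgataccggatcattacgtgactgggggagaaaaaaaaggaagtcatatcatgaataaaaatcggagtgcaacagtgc
A match is a description of letters in a window and not a binding site.

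Per transcript length (FPKM), the order of the levels in NT + Sham was led by Vgf at 192 ± 36.9 FPKM (mean ± SD, n = 6) and Scg2 at 89.9 ± 4.17 FPKM, 2 precursors stored in dense core granules. Nptx2, a pentraxin that gathers AMPA receptors at synapses, followed at 26.8 ± 3.70 FPKM. Below it stood Cort at 15.9 ± 1.98 FPKM and Adcyap1 at 10.7 ± 2.22 FPKM. Tac2 at 8.49 ± 1.78, Grp at 8.19 ± 1.46 and Crh at 6.09 ± 0.571 FPKM came next, and each neighbour in the run from Cort to Crh overlapped the next in its range. Bdnf at 3.34 ± 0.535 FPKM and Spx at 1.41 ± 0.391 FPKM were the lowest, and their ranges overlapped neither each other nor Crh.

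In normotensive mice, 6 of the 10 genes were lower after stroke at an adjusted *P* under 0.05. Over the genome 25.9% of the 16835 genes tested passed that threshold, and 11.5% passed it lower after stroke. The count of 6 is a description, because the genes were selected on measured values. The median log2 fold change of the 10 genes was -0.38, and that of all genes tested was -0.01. The 3 genes with no overlap between the groups were Bdnf, Grp and Cort, and 6.83% of all genes were lower after stroke without overlap. Scaling by library size alone gave 5 of the 10 and moved the share of lower genes among all calls from 44.4% to 25.5%. That share was 31.0% with limma on log2(FPKM + 1).

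Grp encodes gastrin-releasing peptide, which excites interneurons that carry its receptor. The gene lies on chromosome 18 and overlaps the antisense gene AC152076.4, and whether the counting used strand is not given in the sources used here, so reads of that pair cannot be told apart. Grp had 6.89, 8.84 and 11.4 CPM in NT + Sham (lowest, median and highest) and 1.94, 3.95 and 4.49 CPM in NT + Stroke. In HT + Sham it had 3.31, 8.31 and 11.8 CPM. In HT + Stroke it had 2.78, 3.97 and 8.04 CPM. All 6 NT + Stroke libraries lay below all 6 NT + Sham libraries, while the HT groups overlapped through library 6 of HT + Sham at 3.31 CPM and library 1 of HT + Stroke at 8.04 CPM, both among the 3 set apart by injury markers. The log2 fold change of Grp after stroke was -1.25 ± 0.18 (SE) in NT and -0.77 ± 0.28 in HT mice. Without the 3 libraries it was -1.19 ± 0.22 in HT mice.

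Cort (ENSMUSG00000028971, chr4:149125034-149126763, minus strand) encodes cortistatin, a relative of somatostatin made by some cortical interneurons. It had 9.19, 10.97 and 12.4 CPM in NT + Sham and 3.35, 6.02 and 7.39 CPM in NT + Stroke, with no overlap. HT + Sham held 8.20, 9.61 and 13.3 CPM, and HT + Stroke held 4.87, 8.48 and 9.68 CPM. The HT groups overlapped, and only 2 of the 6 HT + Stroke libraries lay below all HT + Sham libraries. Its log2 fold change was -0.87 ± 0.15 in NT and -0.33 ± 0.16 in HT mice.

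Bdnf (ENSMUSG00000048482, chr2:109674700-109727007, plus strand) overlaps the antisense gene Gm45346, with the same limit on strand as Grp. Its level in NT + Sham was 17.2, 20.8 and 26.0 CPM, and in NT + Stroke 10.6, 12.9 and 14.8 CPM. In HT + Sham it was 13.9, 18.6 and 21.4 CPM, and in HT + Stroke 9.48, 12.8 and 19.0 CPM. The 3 libraries set apart by injury markers again lay toward the opposite group, with 13.9 CPM in library 6 of HT + Sham, the lowest of its group, and 19.0 and 16.6 CPM in libraries 1 and 6 of HT + Stroke, the highest of theirs. The log2 fold change of Bdnf was -0.67 ± 0.11 in NT and -0.38 ± 0.15 in HT mice, and -0.68 ± 0.13 in HT mice without them.

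Adcyap1 (ENSMUSG00000024256, chr17:93199422-93205485, plus strand) encodes PACAP, a peptide that raises cyclic AMP through its receptor. It had 17.6, 22.6 and 29.2 CPM in NT + Sham and 9.59, 14.3 and 20.5 CPM in NT + Stroke. It had 19.0, 22.2 and 23.7 CPM in HT + Sham and 11.1, 13.0 and 15.7 CPM in HT + Stroke. The highest HT + Stroke library stayed below the lowest HT + Sham library, whereas in NT mice library 4 of NT + Stroke, at 20.5 CPM, lay within the sham range. Its log2 fold change was -0.62 ± 0.17 in NT and -0.70 ± 0.10 in HT mice, and -0.79 ± 0.12 in HT mice without the 3 libraries.

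Vgf (ENSMUSG00000037428, chr5:137026392-137033351, plus strand) encodes a granule protein that is cut into several peptides. It had 437, 558 and 766 CPM in NT + Sham and 293, 424 and 522 CPM in NT + Stroke. HT + Sham held 417, 488 and 801 CPM, and HT + Stroke held 303, 489 and 709 CPM. Its groups overlapped in both kinds of mice. The log2 fold change was -0.45 ± 0.14 in NT and -0.12 ± 0.20 in HT mice. Vgf fell short of the threshold when any of 6 NT libraries was left out, namely libraries 1, 2 and 3 of NT + Sham and libraries 1, 4 and 5 of NT + Stroke, with adjusted *P* values up to 0.0768.

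Nptx2 (ENSMUSG00000059991, chr5:144545902-144557478, plus strand) had 57.1, 67.7 and 81.3 CPM in NT + Sham and 43.5, 55.4 and 63.2 CPM in NT + Stroke. It had 60.9, 64.5 and 73.5 CPM in HT + Sham and 51.9, 59.0 and 75.8 CPM in HT + Stroke. The groups overlapped, and the highest HT + Stroke value was again library 1. The log2 fold change was -0.30 ± 0.10 in NT and -0.10 ± 0.09 in HT mice. Nptx2 also fell short when any of 6 NT libraries was left out, namely libraries 1, 4 and 6 of NT + Sham and libraries 1, 2 and 5 of NT + Stroke, with adjusted *P* values up to 0.0867. Bdnf, Adcyap1, Grp and Cort kept their calls without each single library.

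The other 4 genes did not pass the threshold after stroke in NT mice. Scg2 (ENSMUSG00000050711, chr1:79434669-79440120, minus strand), a secretogranin, had 220, 225 and 241 CPM in NT + Sham and 208, 240 and 256 CPM in NT + Stroke. It had 223, 242 and 302 CPM in HT + Sham and 193, 205 and 243 CPM in HT + Stroke. The log2 fold change of Scg2 was 0.06 ± 0.06 in NT and -0.25 ± 0.09 in HT mice. Crh (ENSMUSG00000049796, chr3:19693401-19695396, minus strand), the stress peptide corticotropin-releasing hormone, which is made in the cortex by interneurons, had group medians between 7.67 and 8.53 CPM. Its log2 fold changes were 0.10 ± 0.13 in NT and -0.27 ± 0.16 in HT mice.

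Tac2 (ENSMUSG00000025400, chr10:127724478-127731768, plus strand), the precursor of neurokinin B, had group medians between 10.9 and 12.8 CPM. Its log2 fold changes were -0.06 ± 0.13 in NT and -0.01 ± 0.17 in HT mice. Spx (ENSMUSG00000071112, chr6:142413441-142419730, plus strand), the precursor of spexin, rested on 20 to 79 reads per library, the fewest of the 10 genes. It had 1.87, 2.26 and 3.62 CPM in NT + Sham and 1.21, 2.44 and 3.08 CPM in NT + Stroke. HT + Sham held 1.27, 2.21 and 2.60 CPM, and HT + Stroke held 1.16, 1.50 and 1.74 CPM. Its log2 fold changes were -0.09 ± 0.23 in NT and -0.50 ± 0.21 in HT mice.

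**Figure D1:**
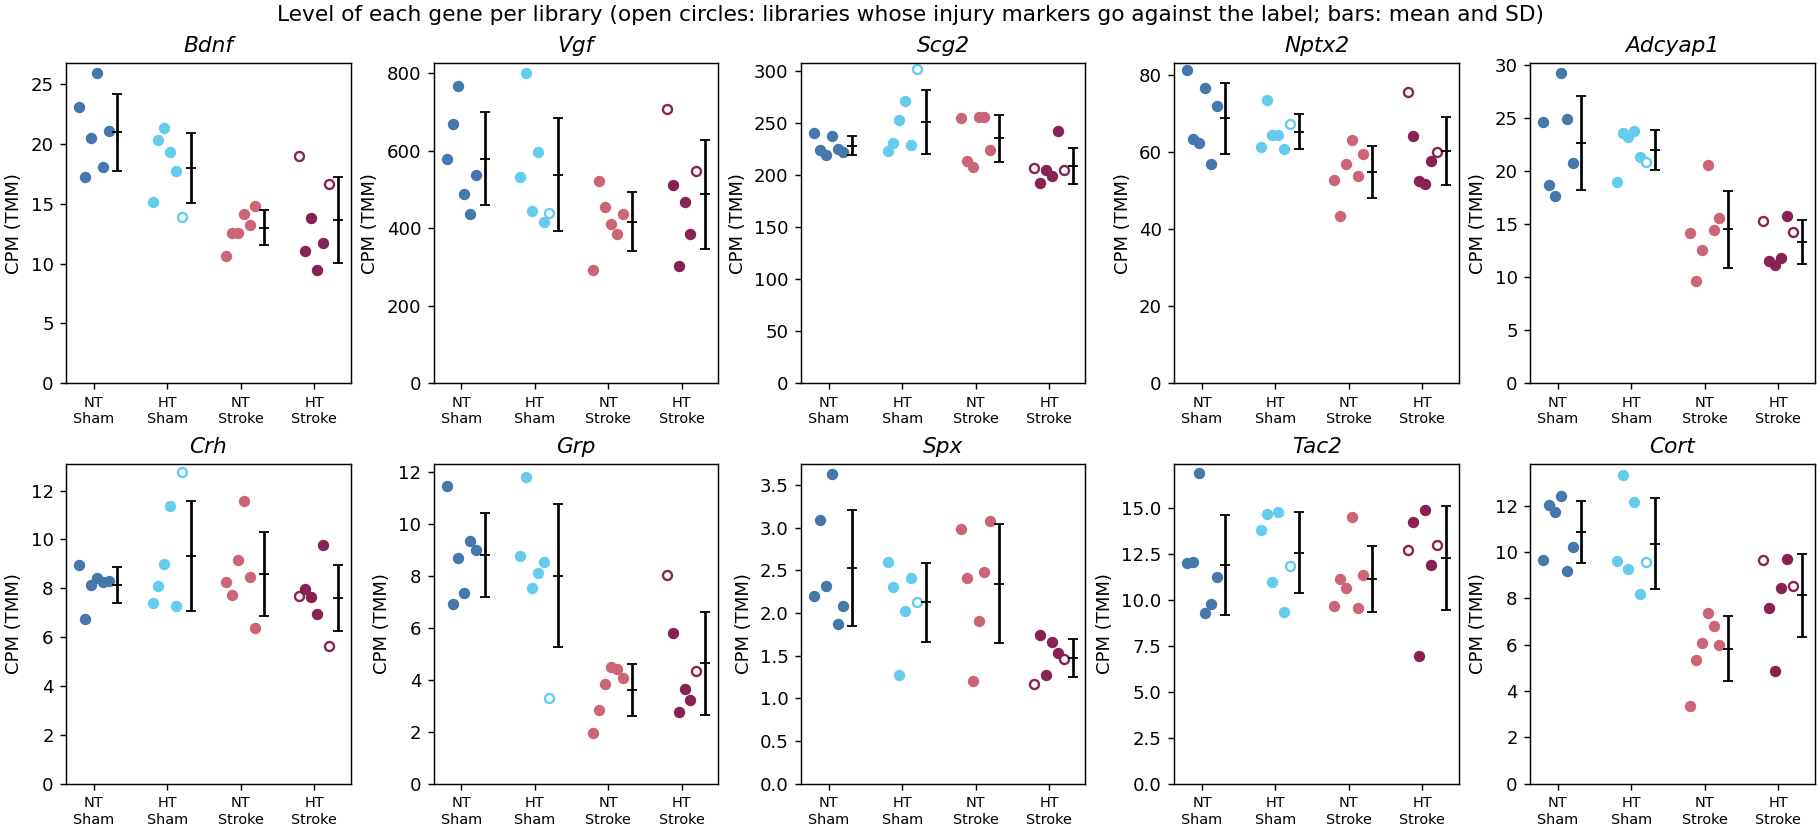
Level in CPM after TMM scaling (y axis, from 0) of each of the 10 genes in the 24 libraries, by group (x axis), with the mean and SD of 6 libraries beside the points. Open circles are the 3 libraries set apart from the rest of their groups by injury markers. The 6 NT + Stroke points of Bdnf, Grp and Cort all lie below the 6 NT + Sham points.

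In HT mice, 1 of the 10 genes, Adcyap1, was called after stroke, where 0.645% of the 16741 genes tested were called and 0.102% were called lower. Adcyap1 was also the single gene of the 10 without overlap between the HT groups, against 0.561% of all genes that were lower without overlap. All 10 log2 fold changes were below 0, with a median of -0.30 against 0.00 for all genes tested, although 3 of them turned sign with regional scores as covariates. Without the 3 libraries, 3 of the 10 genes were called (Bdnf, Adcyap1 and Grp), and 8.47% of the 16956 genes tested were called. The log2 fold changes of the other 7 genes were then -0.43 for Cort, -0.43 for Spx, -0.39 for Vgf, -0.17 for Scg2 and Nptx2, -0.06 for Crh and -0.05 for Tac2. The 3 libraries were chosen by their injury markers, and no NT library was left out in this way. Such a choice can itself widen the stroke differences of genes that follow injury, so nearness to the NT values is only a description.

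**Figure D2:**
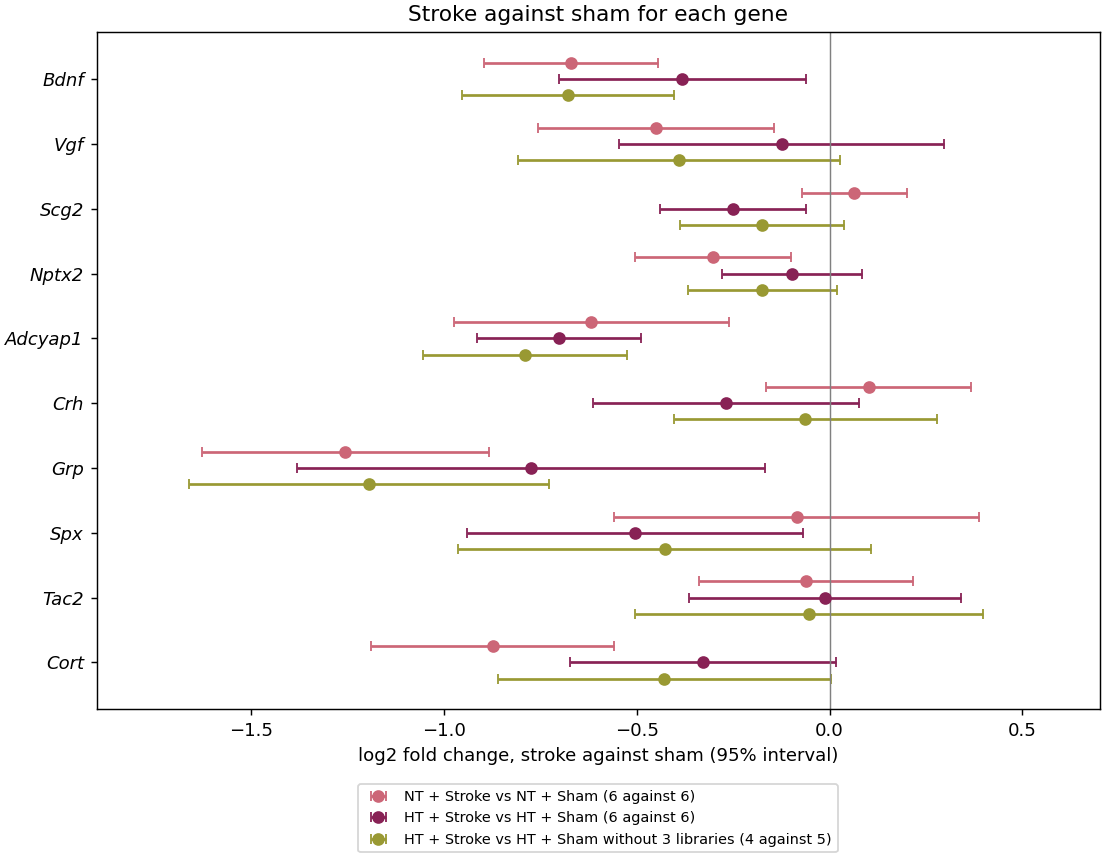
Log2 fold change of stroke against sham (x axis, with 95% intervals) for each gene in NT mice, in HT mice, and in HT mice without the 3 libraries set apart by injury markers. For Bdnf the HT value moves from -0.38 to -0.68 and for Grp from -0.77 to -1.19 when they are left out, next to -0.67 and -1.25 in NT mice. The 3 libraries were chosen by injury markers and no NT library was left out, so nearness to the NT values is not a test.

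Levels of regional tissue markers also differed between stroke and sham libraries. The olfactory bulb markers were higher after stroke in NT mice and lower in HT mice, where 0 of 4 were called. In NT mice the median summed level of 5 cortical excitatory neuron markers was 5707 CPM in sham and 4161 CPM in stroke libraries, and all 5 were called lower, among them Neurod6 at -0.83 ± 0.07 and Tbr1 at -0.58 ± 0.06 (adjusted *P* = 2.62e-07 and 1.60e-06). Of 8 GABA interneuron markers, 3 were called higher (Calb2, Slc32a1 and Gad2) and none lower, with 5 log2 fold changes above 0 and 3 below. Calb2 was highest in libraries 1, 4 and 5 of NT + Stroke (251, 247 and 210 CPM). Their summed olfactory bulb markers were also the highest of that group (294, 277 and 259 CPM). The medians of Lhx6, Pvalb and Htr3a were 16.1, 70.4 and 7.80 CPM in sham and 12.8, 53.5 and 7.30 CPM in stroke libraries. The summed olfactory bulb markers had medians of 82.4 and 181 CPM, and 2 of those 4 genes, Tbx21 and Doc2g, were called higher. The summed striatal markers had medians of 647 and 1084 CPM, with 0 of 6 genes called. When the olfactory bulb and striatal scores entered the NT fit as covariates, 0 of the 10 genes and 690 of all genes were called. The log2 fold changes were then -0.99 ± 0.32 for Grp, -0.59 ± 0.26 for Cort, -0.37 ± 0.17 for Adcyap1, -0.32 ± 0.17 for Bdnf, -0.14 ± 0.17 for Vgf and -0.09 ± 0.15 for Nptx2, the 6 genes called without covariates. Those of Scg2 and Tac2 turned sign, to -0.03 and 0.19.

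In HT mice the summed olfactory bulb markers had medians of 185 CPM in sham and 75.1 CPM in stroke libraries, and all 4 had log2 fold changes below 0, with a median of -0.99. By edgeR and by DESeq2 0 of the 4 were called, with 0 at an unadjusted *P* under 0.05. The summed striatal markers had medians of 502 and 1407 CPM. All 6 striatal genes had log2 fold changes above 0, with a median of 1.47, and edgeR called 0 of them, with 6 at an unadjusted *P* under 0.05 and 6 called by DESeq2. The cortical excitatory markers had summed medians of 5396 and 4811 CPM, and 0 of 5 were called by either tool, with 1 at an unadjusted *P* under 0.05. Without the 3 libraries the log2 fold changes were between -0.30 and -0.08 for the olfactory bulb markers and between 0.90 and 1.63 for the striatal markers, and Neurod6 was at -0.76. With the olfactory bulb and striatal scores as covariates, 0 of the 10 genes and 0 of all genes were called in the HT comparison. Adcyap1 was then at -0.62 ± 0.16, against -0.70 without covariates, while Bdnf was at -0.60 ± 0.21 and Grp at -1.53 ± 0.29, both farther from 0 than without them. Scg2, Crh and Tac2 turned sign, to 0.05, 0.30 and 0.03. The part of tissue content in the differences was not otherwise tested.

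The sham groups were compared for differences with angiotensin II alone, again as a description for the 10 genes. None of the 10 genes was called, nor was any other gene by edgeR (0% of 16581 genes), with 0 of the 10 and 1332 of all genes at an unadjusted *P* under 0.05, and DESeq2 also called 0. Bdnf was at 20.99 ± 3.22 CPM in NT + Sham and 18.0 ± 2.95 CPM in HT + Sham, a log2 fold change of -0.22 (95% interval -0.46 to 0.02, adjusted *P* = 0.683). Scg2 was at 229 ± 8.92 and 252 ± 30.7 CPM, a log2 fold change of 0.15 (interval -0.02 to 0.31, adjusted *P* = 0.701). The remaining 8 genes had log2 fold changes between -0.24 for Spx and 0.20 for Crh. The intervals allow changes of moderate size in either direction, up to -0.68 for Spx. Without library 6 of HT + Sham the count was also 0, with 0% of 16667 genes called. The log2 fold changes were then 0.08 for Scg2 and for Crh, 0.02 for Grp, -0.05 for Vgf and Cort, -0.08 for Nptx2, -0.03 for Adcyap1, 0.10 for Tac2, -0.16 for Bdnf and -0.25 for Spx. These sham groups also serve in the stroke comparisons, so the comparisons are not independent.

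Between the stroke groups 0 of the 10 genes were called, and 0% of 17008 genes, with 3 of the 10 and 1230 of all genes at an unadjusted *P* under 0.05 and 0 by DESeq2. Cort was at 5.81 ± 1.40 CPM in NT + Stroke and 8.13 ± 1.79 CPM in HT + Stroke, a log2 fold change of 0.47 ± 0.19 (edgeR adjusted *P* = 0.654). Cort was higher than all NT + Stroke libraries in 5 of 6 HT + Stroke libraries. Spx was at 2.34 ± 0.701 and 1.47 ± 0.222 CPM, a log2 fold change of -0.67 ± 0.22, and all 6 HT + Stroke libraries lay below the NT + Stroke median. Scg2 was at 236 ± 22.6 and 209 ± 17.5 CPM, a log2 fold change of -0.18 ± 0.08, and 5 of 6 HT + Stroke libraries lay below all NT + Stroke libraries. All 3 failed the correction over all genes. Without libraries 1 and 6 of HT + Stroke, 0 of the 10 genes and 0% of 17421 genes were called. The log2 fold changes were then 0.40 ± 0.22 for Cort, -0.59 ± 0.26 for Spx and -0.16 ± 0.09 for Scg2, and those of the other 7 genes were between -0.21 for Adcyap1 and 0.11 for Tac2.

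The difference between the stroke effects of HT and NT mice was fitted as an interaction over all 24 libraries. For the 10 genes its values, intervals and *P*-values are a description, because the genes were picked with measured differences known. None of the 10 genes was called by edgeR or DESeq2, and 2 of the 10 had an unadjusted *P* under 0.05. Over all genes edgeR called 0% of 17608, with 1836 at an unadjusted *P* under 0.05, and DESeq2 called 22. The interaction of Scg2 was -0.32 on the log2 scale (95% interval -0.54 to -0.09, adjusted *P* = 0.323) and that of Cort was 0.54 (interval 0.07 to 1.02, adjusted *P* = 0.432). The interactions of Bdnf at 0.28 (interval -0.12 to 0.68) and Grp at 0.48 (interval -0.25 to 1.21) had intervals that include 0. Without the 3 libraries the interactions were -0.24 for Scg2, 0.45 for Cort, -0.01 for Bdnf and 0.06 for Grp, those of the other 6 genes were between -0.34 for Spx and 0.13 for Nptx2, and 0% of 17943 genes were called.

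The other genes of these pathways came from 6 lists with 118 genes, of which 102 were tested in the NT stroke comparison. The lists too were chosen with earlier results of these data known, so their counts and adjusted *P* values are a description. After stroke in NT mice 14 rose and 29 fell, the sum of the 6 lists below. Each list's count is to be read against the share over all genes tested, of which 25.9% were called and 11.5% were called lower. Of all 16835 genes tested, 2426 were called higher and 1939 lower. Of 17 genes for precursor processing and granules, 2 rose, 9 fell and 6 did not pass. Plat, the plasminogen activator that cleaves proBDNF through plasmin, rose by 0.55 ± 0.10 on the log2 scale (adjusted *P* = 0.000585). The convertase gene Pcsk1 changed by -0.49 ± 0.10 (adjusted *P* = 0.000951) and Cadps2, which primes dense core granules for release, by -0.48 ± 0.09 (adjusted *P* = 0.000372). The list had a median of -0.23.

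Of 9 pentraxin partners and secreted synaptic proteins, 6 fell and 3 did not pass. C1ql3 went from 16.0 ± 5.80 to 8.001 ± 1.25 CPM, a log2 fold change of -0.98 ± 0.20. Nrn1, the activity-regulated neuritin, changed by -0.47 ± 0.12. The receptor of the neuronal pentraxins, Nptxr, went from 1231 ± 62.3 to 885 ± 108 CPM without overlap, a change of -0.45 ± 0.07. All 3 had an adjusted *P* of at most 0.0111.

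Of 21 receptors and binding proteins tested, 4 rose, 7 fell and 10 did not pass. C3ar1, a complement receptor that also binds a VGF peptide and is known in microglia, rose by 2.53 ± 0.25 on the log2 scale. Tacr3, the receptor of neurokinin B, rose by 1.15 ± 0.30 and Tacr1, the receptor of substance P, by 1.02 ± 0.12. Their adjusted *P* values were at most 0.00892. In the same libraries the 6 microglia and macrophage markers had summed medians of 106 CPM in NT + Sham and 524 CPM in NT + Stroke, and all 6 rose. The TrkB gene Ntrk2 did not pass, with 412 ± 33.2 and 432 ± 17.4 CPM.

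Of 22 other trophic factors tested, 6 rose, 1 fell and 15 did not pass. With 25.9% of all genes called, the counts of this list and of the next are not a result about these lists. Igf1 went from 9.04 ± 0.815 to 25.7 ± 5.16 CPM without overlap, a log2 fold change of 1.53 ± 0.12 (adjusted *P* = 9.93e-08). Igf2 rose by 1.28 ± 0.33 and Tgfb1 by 1.15 ± 0.14. Of 16 other neuropeptides tested, 2 rose, 3 fell and 11 did not pass. Trh rose by 1.18 ± 0.38 (adjusted *P* = 0.0427) and Nmb by 0.99 ± 0.30 (adjusted *P* = 0.0306), 2 genes whose levels overlapped between groups. Cck, the abundant cortical peptide cholecystokinin, went from 648 ± 68.7 to 433 ± 56.9 CPM, a change of -0.56 ± 0.08 (adjusted *P* = 7.55e-05).

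Of 17 immediate early genes, 0 rose, 3 fell and 14 did not pass, with a median of -0.28. Over all genes tested 25.9% were called and 11.5% were called lower, so the 3 genes are not a result about this list. Egr3 changed by -0.40 ± 0.11, Homer1 by -0.28 ± 0.08 and Crem, which encodes cyclic AMP response factors, by -0.26 ± 0.07. The adjusted *P* of each was at most 0.0168. Fos did not pass, at 14.5 ± 8.03 CPM in sham and 12.8 ± 3.32 CPM in stroke libraries. With the regional scores as covariates, 7 pathway genes were called in place of 43, and 690 of all genes in place of 4365.

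**Figure D3:**
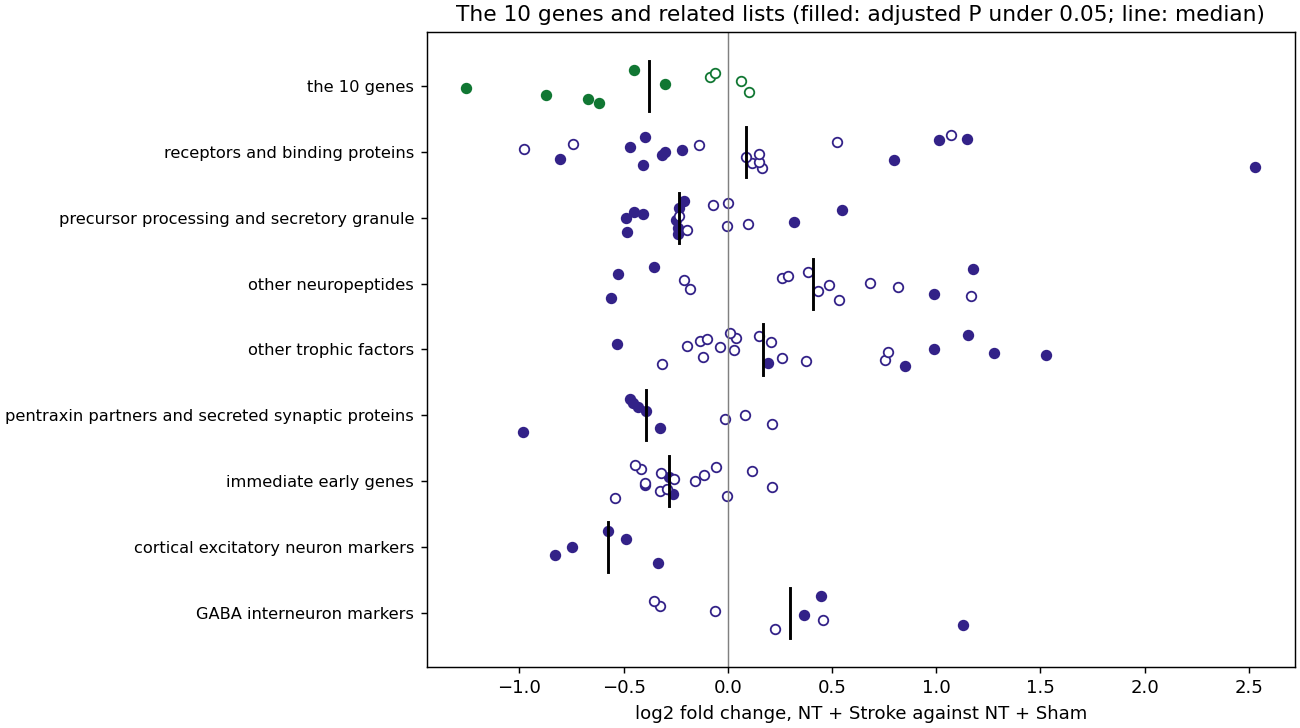
Log2 fold change of NT + Stroke against NT + Sham (x axis) for the 10 genes, the 6 pathway lists and 2 marker lists (rows), with a point per gene, filled where the adjusted *P* is under 0.05, and a black line at the list's median. The medians run from -0.58 for cortical excitatory neuron markers to 0.41 for other neuropeptides, and the 10 genes have -0.38.

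In HT mice, 2 of 103 pathway genes tested were called after stroke, against 0.645% of all genes tested. They were Cbln2 at -0.41 and Npas4 at -0.69 on the log2 scale (adjusted *P* = 0.0377 and 0.0296). DESeq2 called 16 pathway genes, and 907 of 18594 genes in all. In the other 4 lists the genes with the smallest *P* were Tacr1 at 0.63, Pcsk1 at -0.47, Penk at 0.99 and Tgfb1 at 0.93, with adjusted *P* values between 0.0636 and 0.106. Without the 3 libraries 4 rose and 10 fell, where 8.47% of all genes tested were called. Cbln2 at -0.45, Npas4 at -0.58, Pcsk1 at -0.55 and Tgfb1 were among those called, and Tacr1 at 0.54 and Penk at 0.75 were not called. The count of 2 depended on single libraries: it was 10 without library 1 of HT + Stroke, 4 without library 5 or 6 of HT + Stroke or library 6 of HT + Sham, 1 without library 1 of HT + Sham or library 3 of HT + Stroke, and 0 without libraries 2, 3 or 4 of HT + Sham or libraries 2 or 4 of HT + Stroke. In the sham comparison, between the stroke groups and in the interaction 0 pathway genes were called by edgeR or DESeq2, with 20, 12 and 22 at an unadjusted *P* under 0.05. The genes with the smallest *P* of each list in the sham comparison were Tacr1 at 0.44, Cadps2 at -0.30, Gal at 1.31, Igf1 at 0.63, Lgi1 at -0.18 and Crem at -0.28 (lowest adjusted *P* 0.406). Between the stroke groups they were Sstr5 at 0.76, Plat at -0.38, Pnoc at 0.31, Ptn at -0.30, Cbln4 at -0.42 and Fos at -0.85 (lowest adjusted *P* 0.654). In the interaction they were Vipr2 at -1.95, Plat at -0.62, Nmb at -1.67, Artn at -1.66, Lgi1 at 0.38 and Npas4 at -0.81 (lowest adjusted *P* 0.319). Without the 3 libraries 0 pathway genes were called in these 3 comparisons, and these named genes kept their direction, with Vipr2 at -1.28, Nmb at -1.11, Artn at -1.19 and Lgi1 at 0.20 in the interaction.

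Within groups, the 10 genes varied together in part. Deviations of log2 CPM from the group mean were correlated over the 24 libraries for 45 gene pairs and for 50 pairs of a gene and a marker score, and *P*-values from 100000 permutations within groups were adjusted over all 95 relations. Of the gene pairs 8 passed by Pearson's r, all with a positive correlation. Among them, only Vgf with Tac2 and Scg2 with Adcyap1 also had an adjusted permutation *P* under 0.05 by Spearman's rho. How many pairs of other genes would pass was not computed, so the count is a description. Vgf and Tac2 had r = 0.73 (adjusted permutation *P* = 0.0102) and Spearman's rho = 0.72 (adjusted permutation *P* = 0.00982), and r = 0.64 without the 2 libraries farthest from the median. Scg2 and Crh had r = 0.69 (adjusted permutation *P* = 0.0193) and rho = 0.56 (adjusted permutation *P* = 0.0674), and r = 0.53 without 2 libraries. After both genes of a pair were regressed on the olfactory bulb and striatal scores, r was 0.79 for Vgf and Tac2 and 0.44 for Scg2 and Crh, and between 0.22 for Scg2 and Adcyap1 and 0.79 over the 8 pairs.

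Of the relations with marker scores, 13 of 50 passed by Pearson's r. Among them, those of Grp and Crh, and those of Vgf with the general neuron and cortical excitatory scores, did not pass by rho. The share for other genes was not computed. Scg2 ran against the striatal score with r = -0.76 (adjusted permutation *P* = 0.0019) and rho = -0.76 (adjusted permutation *P* = 0.0038), and with r = -0.67 without 2 libraries. It ran with the olfactory bulb score at r = 0.69 (adjusted permutation *P* = 0.0102) and rho = 0.64 (adjusted permutation *P* = 0.0356), and at r = 0.72 without 2 libraries. Grp had r = 0.81 with the cortical excitatory score (adjusted permutation *P* = 0.0102), rho = 0.55 (adjusted permutation *P* = 0.0674) and r = 0.63 without 2 libraries. Bdnf had r = 0.70 with the same score (adjusted permutation *P* = 0.0102), rho = 0.72 (adjusted permutation *P* = 0.00982) and r = 0.57 without 2 libraries. Over the 21 libraries without those set apart by injury markers, the 8 pairs and the 13 relations with scores kept their sign. There r was 0.77 for Vgf and Tac2, 0.65 for Scg2 and Crh, and -0.70 and 0.71 for Scg2 with the striatal and olfactory bulb scores. It was 0.65 for Grp and 0.53 for Bdnf with the cortical excitatory score. These deviations were still taken from the means of all 6 libraries of a group. The r values over 21 libraries therefore keep some influence of the libraries left out, and so do those without 2 libraries. Spx had correlations between -0.20 and 0.13 with the 5 scores.

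**Figure D4:**
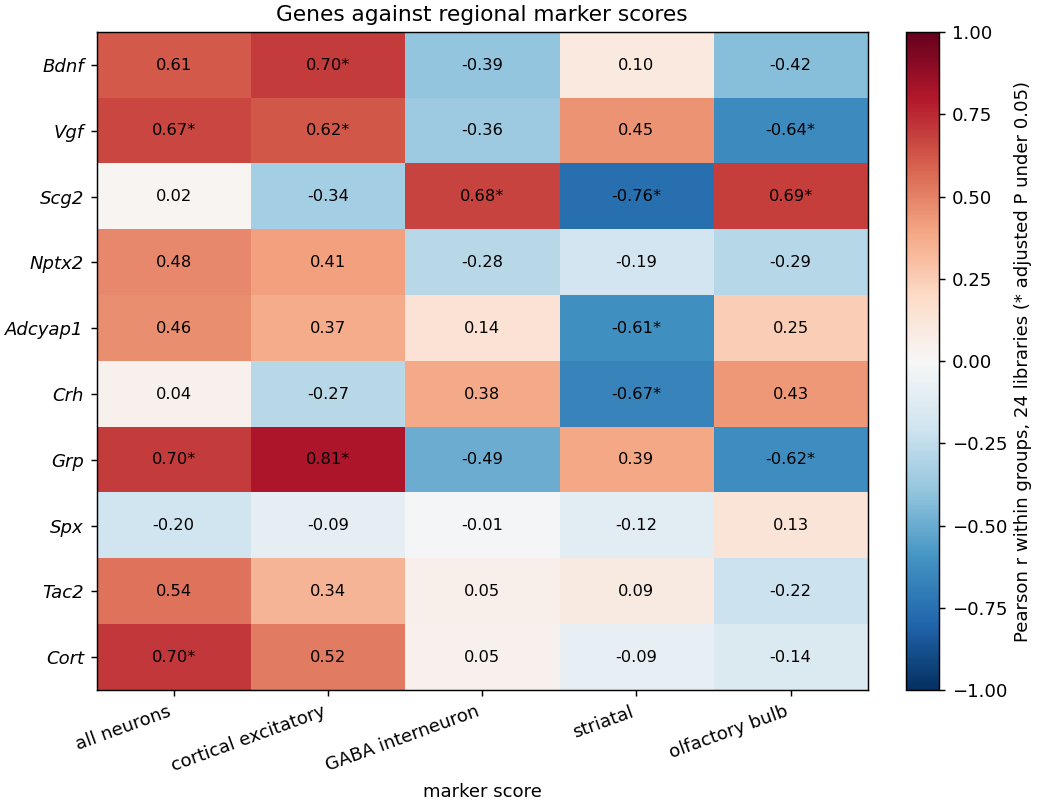
Pearson's r between the within-group deviations of each gene (rows) and of 5 marker scores (columns) over 24 libraries, in colour and as a number, with a star where the adjusted permutation *P* is under 0.05. Scg2, Crh and Adcyap1 run against the striatal score (-0.76, -0.67 and -0.61), whereas Bdnf, Vgf and Grp run with the cortical excitatory score (0.70, 0.62 and 0.81).

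The genes most like each of the 10 over the 24 libraries were listed from 15492 genes of at least 1 CPM on average, by r of the same deviations and as a description. Vgf was most like Dlgap3 (0.97), Ubald1 (0.96) and Cdk5r2 (0.95), and Tac2 most like Higd2a (0.95), Rab3a (0.93) and Fastk (0.93). Scg2 was nearest to Plppr5 (0.88), Lrrc55 (0.87) and Prune2 (0.87), and Grp to Mboat7 (0.88), Plcxd1 (0.87) and Pacs1 (0.86). Bdnf was nearest to Rabep1, Cadm1 and Minpp1 (each 0.87), Adcyap1 to Sphkap (0.83), Cacna2d1 (0.80) and Ipcef1 (0.80), and Cort to Gm5436 (0.82), Wnt7b (0.81) and Golga7b (0.79). Crh had 5031425E22Rik (0.80), Cyp2j9 (0.74) and Plppr5 (0.73), Nptx2 had Tenm4 (0.69), Tnfaip8l3 (0.66) and Capn12 (0.66), and Spx had 9130604C24Rik (0.71), Trpm6 (0.63) and Aoc3 (0.57). Over the 21 libraries, with the group means taken anew, 15 of these 30 genes were again among the 3 most like their gene. There r of the 30 was between 0.57 and 0.98.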

How the data were processed

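Poly(A) RNA was sequenced by a service provider on a HiSeq2500 instrument. The authors deposited raw counts per gene and FPKM values for 24 libraries in 4 pairwise tables, which were joined by gene ID. The 48 library columns that occur in 2 tables were compared and 0 differed, and 48 columns of normalized counts and the authors' own fold changes and *P*-values were not used. The submitters' processing notes name featureCounts 1.5.0-p3 and DESeq2 1.20.0, while the aligner is not given in the sources used here. The build is not named either, and 33128 of 33960 genes had the same position as in GENCODE M21 (GRCm38).

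Genes were filtered with filterByExpr (minimum count 10), scaled by TMM and tested with the quasi-likelihood test of edgeR 4.0.16 in R 4.3.3, two-sided, with Benjamini-Hochberg correction for every gene tested and a threshold of 0.05. An SE is the absolute log2 fold change divided by the square root of F. DESeq2 1.42.0 and limma 3.58.1 on log2(FPKM + 1) were alternatives. The fit was tested on simulated data. Marker scores average log2(CPM + 1) over the genes of a list. Members and lists were chosen with earlier results of these data known. From each pathway list up to 3 genes with the largest change among those past the threshold were named, or else the gene with the smallest *P*, and a few more genes were named after their values were seen (Ntrk2 and Fos). The 3 libraries that were left out, and the fit with the library number as a replicate block, were chosen after seeing the data. The values of 1 marker gene are not reported here.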

Additional observations from a re-analysis of the deposited data

Results flagged for a closer look

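In 40 groups of 6 libraries (10 genes in 4 groups) the gap between an extreme library and its neighbour was compared with the range of the group, and 5 exceeded the critical value of Dixon's test at the 95% level, where chance flags about 1 in 20 groups. Scg2 was at 243 CPM in library 5 of HT + Stroke, with the next at 207 CPM. Crh was lowest at 6.73 CPM in library 2 of NT + Sham, with the next at 8.15 CPM. Tac2 was flagged in 3 groups, at 16.9 CPM in library 3 of NT + Sham, at 14.5 CPM in library 4 of NT + Stroke and at 6.92 CPM in library 3 of HT + Stroke.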

How the results depend on the processing

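With the olfactory bulb and striatal scores as covariates, members called were 0 and pathway genes 7 in the NT stroke comparison, and 0 and 0 in the HT stroke comparison, where Adcyap1 stayed at -0.62 against -0.70. In the HT stroke comparison pathway genes called were 1 by library size alone, 16 by DESeq2, 13 with all 4 groups in one fit (members 2), 0 by limma and 14 without the 3 libraries (members 3), and 0 to 10 with a library left out. In the sham comparison the covariates reversed Bdnf to 0.018, Vgf to 0.17, Nptx2 to 0.032, Adcyap1 to 0.082, Crh to -0.0022, Grp to 0.26, Spx to 0.047 and Cort to 0.046, limma reversed Adcyap1 to 0.00020, and the fit without library 6 of HT + Sham reversed Grp to 0.025. Leaving out libraries gave -0.11 to 0.047 for Adcyap1 and -0.28 to 0.025 for Grp. Between the stroke groups the covariates gave Bdnf -0.14, Vgf -0.087, Nptx2 -0.0062 and Grp -0.12, the fit without the 3 libraries gave Bdnf -0.17, and leaving out libraries gave -0.056 to 0.14 for Bdnf. In the interaction the covariates gave Bdnf -0.11, Vgf -0.25, Nptx2 -0.047, Grp -0.36 and Tac2 -0.12, library size alone gave Tac2 -0.029, and without the 3 libraries Bdnf was -0.0059, while leaving out libraries gave -0.18 to 0.041 for Adcyap1 and -0.069 to 0.17 for Tac2. In the stroke comparisons the covariates turned Scg2 to -0.026 and Tac2 to 0.19 in NT mice and Scg2 to 0.046, Crh to 0.30 and Tac2 to 0.033 in HT mice, library size alone turned Tac2 to 0.0063 in NT mice, and leaving out single libraries turned Tac2 and Spx in NT and Tac2 and Vgf in HT mice. None of these reversed values was called, and the cause was not tested. The libraries are numbered 1 to 6 in each group, and no source says that a number marks a shared animal or batch. Of 36 same-numbered pairs across groups 16 had a correlation of deviations over 0.1 (range -0.48 to 0.36). The best match in the other group had the same number in 13 of 36 cases, where chance gives 1 in 6. Median r was higher for the same number than for other numbers, except between the stroke groups (-0.015 and 0.0090). These values do not settle whether the numbers mark pairs, and the main fits did not pair the libraries. With the library number as a replicate block, members called were 6 and pathway genes 51 in the NT stroke comparison, 1 and 0 in the HT stroke comparison (46 of all genes against 108), and 0 and 0 in the other 3 comparisons. Spx, at 20 to 79 reads per library, is the least precise.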
